A study of Homo sapiens with 18 samples.

Results

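On the long arm of human chromosome 11, band 11q22 holds YAP1, BIRC2 and BIRC3 with several genes of unrelated function, close to a cluster of matrix metalloprotease genes. The 10 genes described here are the non-protease genes YAP1, BIRC2, BIRC3, TMEM123, CFAP300, CEP126, DCUN1D5, DYNC2H1, TRPC6 and PGR, out of 41120 gene symbols in the count table. They were taken by symbol, and were chosen by measured values: high BIRC2 and BIRC3 in SCC154 cells, and a higher CFAP300 level in post-hypoxic than in non-hypoxic SCC154 cells. The differences between the lines and between the SCC154 fractions are therefore given for these genes as descriptions, without a test. The comparison of FaDu fractions was not used in choosing them and was tested.

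The libraries came from a pair of established carcinoma lines of the human head and neck, both squamous: SCC154 (titled SCC154-hfm, HPV-positive) and FaDu (titled FADU-hfm, HPV-negative). All cells of both lines carried a hypoxia-fate mapping reporter, which switches a cell from red (DsRed) to green (GFP) fluorescence for good once it has met low oxygen. Spheroids were formed in low-attachment plates, taken apart, and their cells sorted by colour. The groups are post-hypoxic, GFP-positive SCC154 cells (4 libraries), non-hypoxic, DsRed-positive SCC154 cells (5), post-hypoxic FaDu cells (5) and non-hypoxic FaDu cells (4). Per the series' design text and the labels, the sorted cells were then cultured in normal oxygen and passaged, so the fractions differ in their past and not in the oxygen at harvest. The labels do not say how long that culture lasted, whether replicates were separate sorts, or whether the reporter lines were single clones. With 1 line of each HPV status, the effects of line and of HPV status cannot be told apart.

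YAP1 is the transcriptional co-activator of the Hippo pathway: when the kinases of that pathway are inactive it enters the nucleus and binds TEAD factors. BIRC2 and BIRC3 encode cIAP1 and cIAP2, ubiquitin ligases that bind TRAF2 at tumour necrosis factor receptors, restrain caspase-8 and keep the kinase NIK (MAP3K14) low. The chromosome segment around YAP1 and BIRC2 is known to be amplified in some squamous carcinomas. DNA copy number was not measured here.

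In order along the chromosome (RefSeq, GRCh38.p14), PGR lies at chr11:101029624-101129813 and TRPC6 at chr11:101451564-101584007, both on the reverse strand. CEP126 (chr11:101915010-102001062), CFAP300 (chr11:102047437-102084554), YAP1 (chr11:102110447-102233424), BIRC3 (chr11:102317484-102339403) and BIRC2 (chr11:102347214-102378670) follow on the forward strand. TMEM123 (chr11:102396332-102452765) and DCUN1D5 (chr11:103050686-103092160) lie on the reverse strand, and DYNC2H1 (chr11:103109426-103479863) on the forward strand. BIRC3 and BIRC2 are neighbouring paralogs, whose gene starts are 207.0 and 236.8 kb from that of YAP1.

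RefSeq promoter sequences (250 bases before to 50 after a gene's start, build GRCh38.p14) were held for 9 of the 10 genes, and not for CFAP300. Those of BIRC3 and BIRC2 are shown because the lines differed by very unequal factors in these adjacent paralogs, and that of DYNC2H1 because it holds a motif of cilium genes. Capitals mark matches of the kappaB consensus, which NF-kB factors bind, and of the X-box motif (half-sites GTNNC and GNNAC with any 4 bases between them), which RFX factors bind.

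BIRC3 promoter, chr11:102317234-102317533, forward strand: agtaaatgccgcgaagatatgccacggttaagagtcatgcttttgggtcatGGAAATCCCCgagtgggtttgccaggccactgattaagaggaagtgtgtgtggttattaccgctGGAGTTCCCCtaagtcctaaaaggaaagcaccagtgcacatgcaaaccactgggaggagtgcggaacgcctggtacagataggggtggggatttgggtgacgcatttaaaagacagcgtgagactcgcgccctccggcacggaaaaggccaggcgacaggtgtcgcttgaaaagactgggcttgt
BIRC2 promoter, chr11:102346964-102347263, forward strand: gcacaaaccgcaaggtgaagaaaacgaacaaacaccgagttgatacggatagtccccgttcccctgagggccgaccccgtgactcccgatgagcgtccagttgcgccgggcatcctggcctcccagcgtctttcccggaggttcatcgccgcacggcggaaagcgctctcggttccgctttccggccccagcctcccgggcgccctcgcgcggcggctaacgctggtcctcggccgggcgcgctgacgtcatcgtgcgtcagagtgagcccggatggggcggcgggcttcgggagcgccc
DYNC2H1 promoter, chr11:103109176-103109475, forward strand: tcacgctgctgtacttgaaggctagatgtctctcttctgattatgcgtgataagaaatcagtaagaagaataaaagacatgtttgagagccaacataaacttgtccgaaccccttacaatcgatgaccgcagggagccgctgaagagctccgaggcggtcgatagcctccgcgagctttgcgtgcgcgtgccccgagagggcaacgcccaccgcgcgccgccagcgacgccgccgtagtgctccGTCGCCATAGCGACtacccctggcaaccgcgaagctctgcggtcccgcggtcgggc

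The BIRC3 window held 2 kappaB matches, beginning at -199 and -135 from the gene's start, and the BIRC2 window had 0 at either of its 2 listed starts. Both strands were searched. Of the other described genes only PGR, which had no counts, held a kappaB match, at -45 in the window of its second listed start. A match occurred in 11.3% of the 35116 RefSeq promoter windows. The X-box motif occurred once each in the DYNC2H1 window, at -6, and in the CEP126 window, at -233, and in 7.0% of all windows. The 6-base TEAD motif GGAATG occurred once in the YAP1 window, at -162, and in 14.0% of all windows. These matches describe letters in the windows, not binding.

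Each library was a 3′ mRNA tag library, in which a count stands for a read near the poly(A) end of a transcript and does not scale with transcript length. Library totals lay between 1654719 and 2503573 counts. Of the 10 genes, 8 had counts and passed the filter on low counts, and TRPC6 and PGR had none. All 10 squamous epithelial markers averaged above 1 CPM (counts-per-million units, with library sizes scaled by TMM) in each of the 4 groups. Fibroblast, endothelial and immune markers, each set summed by itself, came to at most 5.80, 5.18 and 2.98 CPM in any library. PTPRC was at 0 in 3 of the 4 groups, and LUM and KDR at 0 in all. The highest group means in these sets were 4.35 CPM for COL1A1 and 3.50 CPM for CDH5 in non-hypoxic SCC154, and 1.92 CPM for CD68 in post-hypoxic SCC154. No stretch of 25 bases was shared between the last 500 bases of the annotated BIRC2 and BIRC3 transcripts, and the last 1 kb of 7 of the 8 detected genes met no other annotated gene. The exception was DCUN1D5, where that gene had no row with counts. DYNC2H1 spans the mitochondrial pseudogenes MTND2P26 and MTND1P36, which had counts of their own.

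The 8 detected genes were all higher in SCC154 than in FaDu cells. Together they took 0.311% to 0.400% of all counts in the post-hypoxic SCC154 libraries, against 0.0564% to 0.0604% in the post-hypoxic FaDu libraries. In the non-hypoxic libraries the share was 0.314% to 0.364% in SCC154 and 0.0512% to 0.0593% in FaDu. The median log2 difference (SCC154 minus FaDu) over these 8 genes was 2.85 in post-hypoxic and 2.96 in non-hypoxic libraries, where the median over all 12291 tested genes was 0.0082 and -0.0096. The libraries of the lines did not overlap for any of the 8. Over all tested genes, SCC154 stood wholly above FaDu for 28.7% and wholly below for 28.6% in post-hypoxic libraries (57.3% in either direction), and for 28.6% and 27.8% in non-hypoxic ones (56.5%). The choice of genes used this comparison, so nothing is read from these counts.

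**Figure D1:**
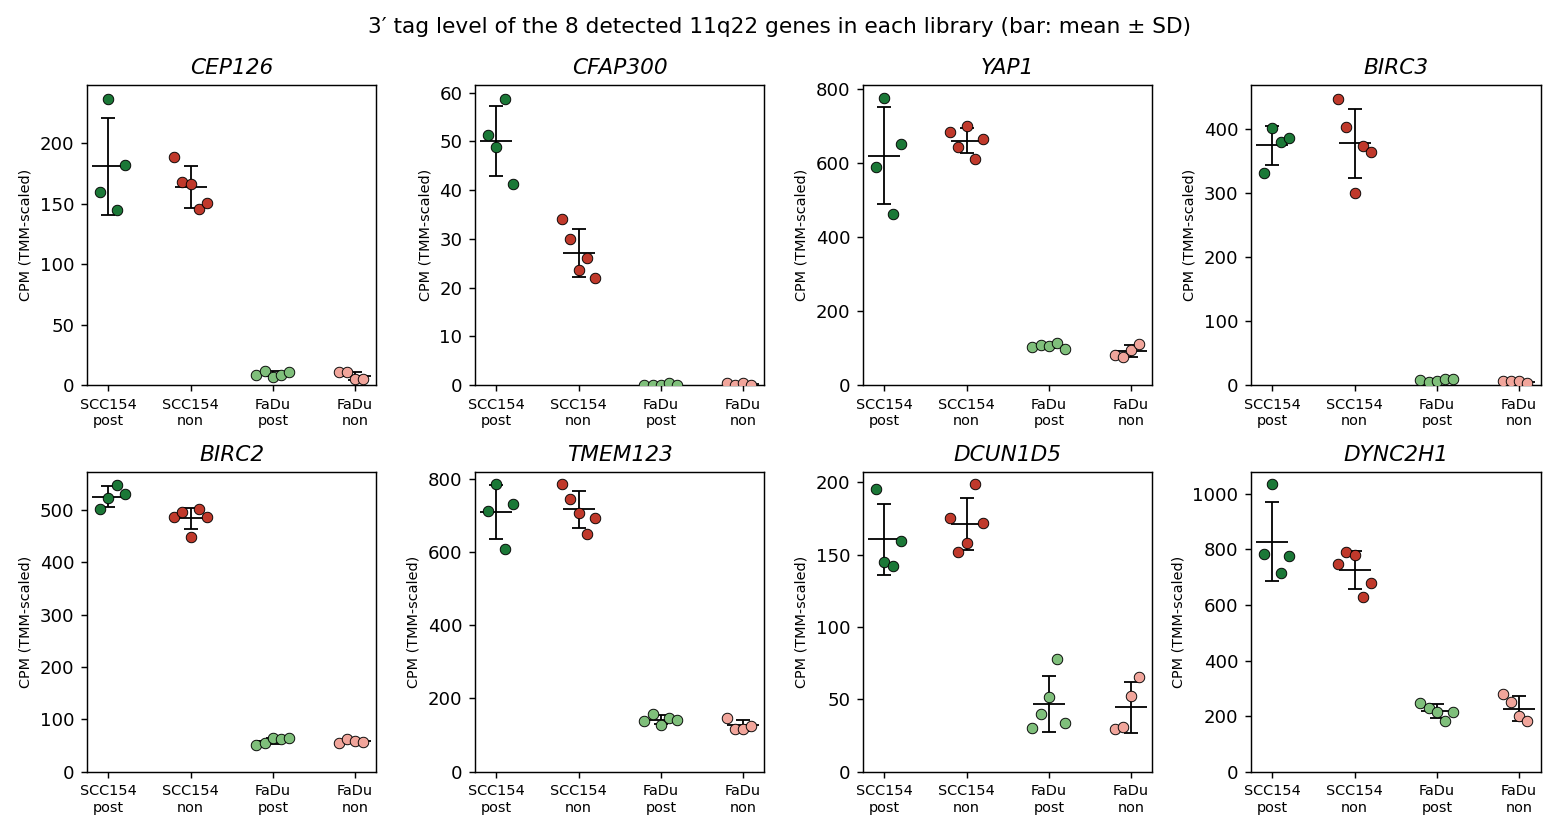
Level of each detected 11q22 gene (CPM, TMM-scaled, linear axis from 0) in each library; points are libraries in order of replicate number and bars are the mean ± SD of each group. In all 8 panels every SCC154 library lies above every FaDu library, and only CFAP300 separates the SCC154 fractions.

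BIRC3, an NF-kB target that encodes cIAP2, differed more between the lines than its neighbour. It had 331, 402, 380 and 385 CPM in post-hypoxic SCC154 replicates 2 to 5, against 7.63, 4.60, 6.36, 8.67 and 9.24 CPM in post-hypoxic FaDu replicates 1 to 5. In non-hypoxic cells it had 447, 403, 301, 373 and 364 CPM in SCC154 replicates 1 to 5, against 5.70, 6.97, 5.99 and 3.24 CPM in FaDu replicates 1 to 4. The lines were thus far apart in either fraction, and in FaDu the gene rested on 80 counts over the 5 post-hypoxic and 46 over the 4 non-hypoxic libraries. The log2 difference of SCC154 and FaDu was 5.66 (SE 0.16), 51.3-fold, in post-hypoxic and 6.07 (SE 0.18), 68.96-fold, in non-hypoxic libraries.

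BIRC2, which encodes cIAP1, was higher in SCC154 by a smaller factor. Its level was 500.5, 521, 548 and 531 CPM in post-hypoxic SCC154 replicates 2 to 5, against 51.8, 54.8, 64.5, 62.3 and 63.8 CPM in post-hypoxic FaDu replicates 1 to 5. The non-hypoxic libraries had 486, 496, 449, 501 and 486 CPM in SCC154 replicates 1 to 5 and 55.1, 61.8, 58.4 and 56.1 CPM in FaDu replicates 1 to 4. These values spread little within a group, with a coefficient of variation between 3.75% and 9.72%. SCC154 exceeded FaDu 8.84-fold (log2 difference 3.14, SE 0.088) in post-hypoxic and 8.35-fold (3.06, SE 0.094) in non-hypoxic libraries.

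Within a library the 2 paralogs therefore stood in different ratios in the 2 lines. The number of BIRC3 counts for each BIRC2 count was 0.662 to 0.770 (median 0.71) in post-hypoxic SCC154, against 0.084 to 0.147 (median 0.139) in post-hypoxic FaDu libraries. In non-hypoxic libraries it was 0.671 to 0.919 (median 0.75) in SCC154 and 0.0577 to 0.113 (median 0.103) in FaDu. The ranges of the lines did not overlap, while the 2 fractions of a line did.

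**Figure D2:**
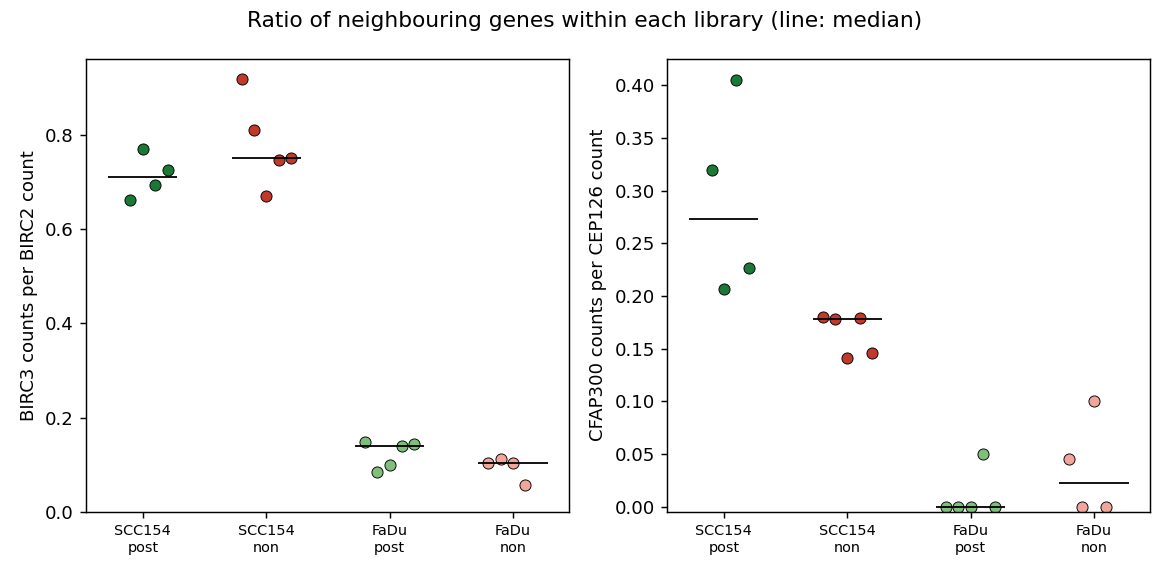
Counts of one gene divided by those of its neighbour within each library, for BIRC3 over BIRC2 and CFAP300 over CEP126; points are libraries and lines are group medians. BIRC3 per BIRC2 separates the lines (0.662 to 0.919 in SCC154, 0.0577 to 0.147 in FaDu), and CFAP300 per CEP126 lies higher in post-hypoxic (0.207 to 0.405) than in non-hypoxic SCC154 libraries (0.141 to 0.180).

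YAP1 had 590, 775, 461 and 652 CPM in post-hypoxic SCC154 replicates 2 to 5, against 102, 107, 105, 114 and 97.7 CPM in post-hypoxic FaDu replicates 1 to 5. In non-hypoxic cells its level was 683, 642, 699, 611 and 665 CPM in SCC154 replicates 1 to 5 and 80.3, 75.3, 95.8 and 112 CPM in FaDu replicates 1 to 4. The post-hypoxic SCC154 libraries were the most spread group, with a coefficient of variation of 21.1%, against 5.23% in non-hypoxic SCC154. SCC154 exceeded FaDu 5.89-fold (log2 difference 2.56, SE 0.13) in post-hypoxic and 7.27-fold (2.87, SE 0.14) in non-hypoxic libraries.

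TMEM123, which encodes a cell surface mucin-like protein also called porimin, ranged from 608 to 784 CPM in post-hypoxic SCC154, against 128 to 158 CPM in post-hypoxic FaDu. In non-hypoxic cells it ranged from 650.2 to 785 CPM in SCC154 and from 117 to 147 CPM in FaDu. The folds were 4.97 (log2 difference 2.31, SE 0.097) in post-hypoxic and 5.66 (2.50, SE 0.10) in non-hypoxic libraries. DCUN1D5, which promotes attachment of NEDD8 to cullins, and DYNC2H1, the motor heavy chain that carries cargo from the tip of a cilium to its base, showed the smallest differences of the 8. DCUN1D5 averaged 160 ± 24.4 CPM in post-hypoxic SCC154 (SD, n = 4) and 46.7 ± 19.2 CPM in post-hypoxic FaDu (SD, n = 5), 3.43-fold, and DYNC2H1 828 ± 143 and 218 ± 23.7 CPM, 3.79-fold. In non-hypoxic libraries the folds were 3.83 for DCUN1D5 and 3.19 for DYNC2H1.

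CEP126, a centrosomal protein needed for cilium formation, averaged 181 ± 40.3 CPM in post-hypoxic SCC154 (SD, n = 4) and 9.15 ± 2.07 CPM in post-hypoxic FaDu (SD, n = 5), 19.8-fold. In non-hypoxic libraries it averaged 164 ± 17.1 CPM in SCC154 (SD, n = 5) and 7.69 ± 3.19 CPM in FaDu (SD, n = 4), 21.3-fold. CFAP300, a cytoplasmic protein of dynein arm assembly in motile cilia, was close to absent from FaDu. Its counts came to 441 over the 4 post-hypoxic SCC154 libraries against 1 over the 5 of FaDu, and to 285 over the 5 non-hypoxic SCC154 libraries against 2 over the 4 of FaDu. The ratio of these levels was 549 (exact 95% counting interval 98.0 to 21734) in post-hypoxic and 112 (30.6 to 925) in non-hypoxic libraries. These intervals cover counting error only.

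TRPC6, a calcium-permeable channel, and PGR, the progesterone receptor, had 0 of 38656813 counts. A count of 0 allows up to 3 counts, or 0.078 CPM over all libraries and 1.23 to 1.79 CPM in a single one. Both genes lie at the centromeric end of the stretch, on the reverse strand. No level was detectable for either at this depth in any group.

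For each detected gene the order of the 4 group means had both SCC154 groups above both FaDu groups. Neighbours in that order within a line overlapped between libraries, with 1 exception, CFAP300 in SCC154.

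The genes between and around the 10 were taken by position: 203 other symbols with a start within 10 Mb of the start of YAP1, of which 60 were tested. By quasi-likelihood test in edgeR, with p-values adjusted after Benjamini and Hochberg over all genes, 34 of the 60 were higher and 23 lower in SCC154 than in FaDu in post-hypoxic libraries, and 33 higher and 23 lower in non-hypoxic ones. Over all tested genes 34.8% were called higher and 34.9% lower in the post-hypoxic libraries (69.7% in either direction), and 34.5% higher and 34.5% lower in the non-hypoxic ones (68.9%). Of the 60, 46 passed the filter in each line alone, as did 10009 of all 12291 tested genes. For the rest the direction of a call can follow in part from the filter. The 6 tested genes lying between the described ones, which are TMEM123-DT, the pseudogene WTAPP1 and the metalloproteases MMP1, MMP10, MMP12 and MMP13, were called higher in both fractions. Only 6 of the 23 symbols lying there were tested, and 3 of the 6 (TMEM123-DT, WTAPP1 and MMP12) passed the filter through SCC154 and not in FaDu libraries alone, so their direction follows in part from the filter. TMEM123-DT, a transcript that starts beside TMEM123 and was picked out here after its values were seen, had no count in FaDu; set against a floor of 3 counts over the group it was at least 32.2-fold higher in post-hypoxic SCC154 libraries, and in non-hypoxic libraries it had 68 counts in SCC154 and 0 in FaDu.

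The direction of the calls differed along the chromosome. Of the 23 tested genes 5 to 10 Mb on the centromere side of YAP1, 17 were higher and 5 lower in post-hypoxic libraries (18 and 4 in non-hypoxic ones), with median log2 differences of 1.07 and 1.22; 17 of the 23 passed the filter in each line alone. Of the 24 tested genes 5 to 10 Mb on the telomere side, 7 were higher and 17 lower in post-hypoxic libraries (6 and 17 in non-hypoxic ones), with medians of -1.17 and -1.20; 21 of the 24 passed in each line alone. In between, 1 gene was tested on the centromere side and 6 on the telomere side, with medians of 3.10 and 0.28 in post-hypoxic and 3.44 and 0.38 in non-hypoxic libraries. The 8 described genes had log2 differences of 1.77 or more in post-hypoxic and 1.67 or more in non-hypoxic libraries. Their choice used this comparison, so nothing is read from their standing against these medians.

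**Figure D3:**
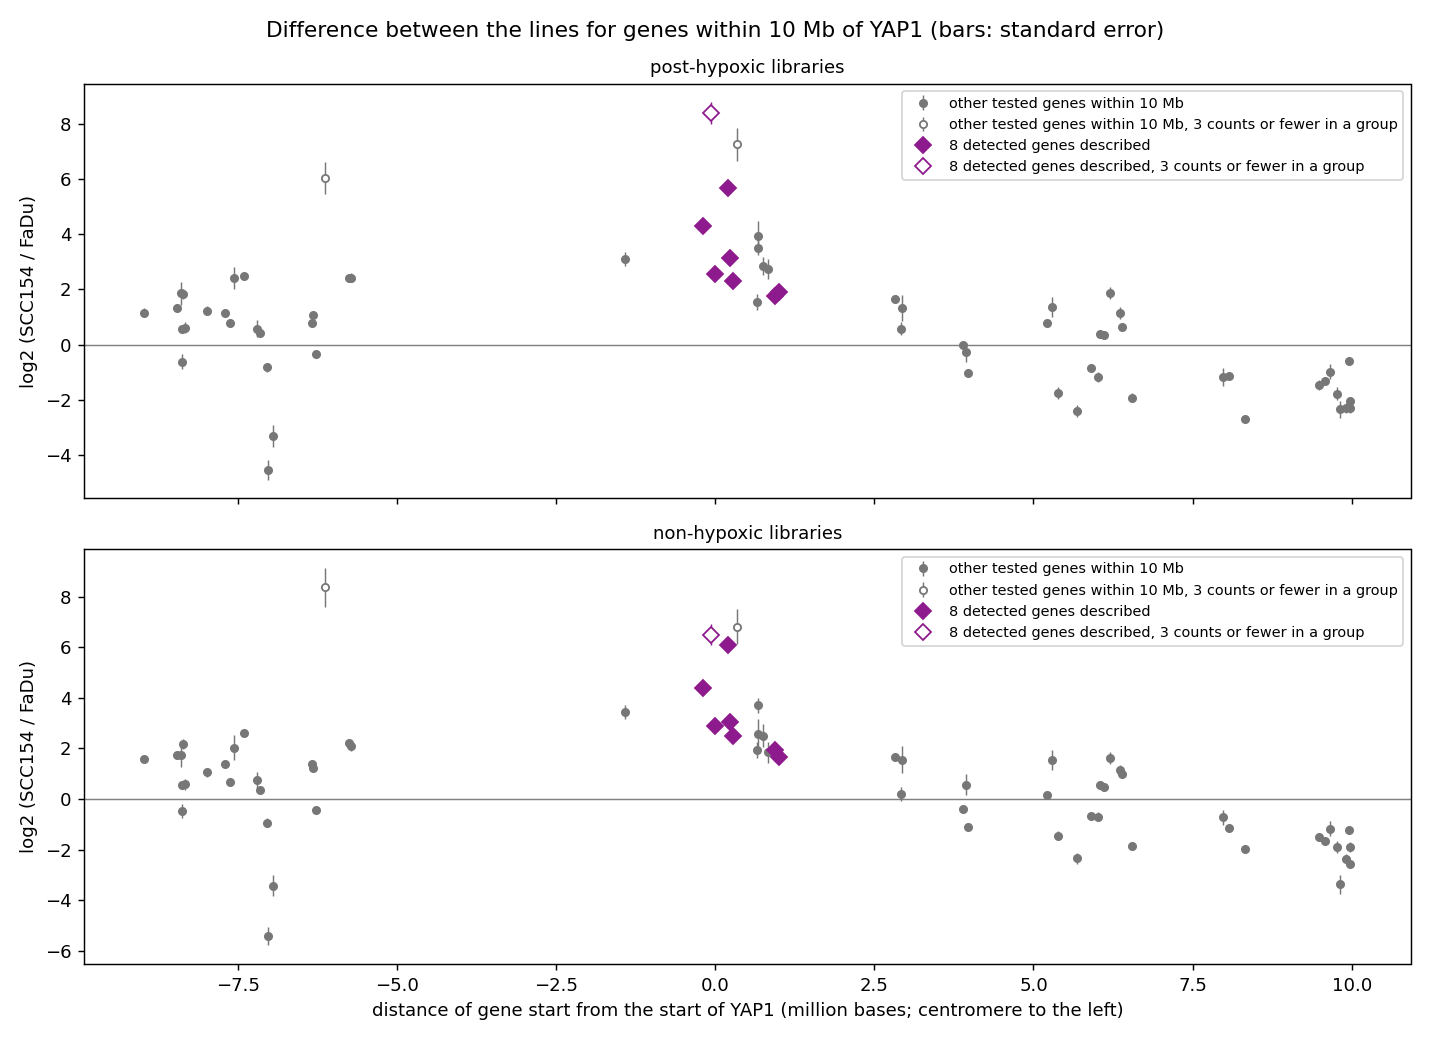
log2 difference between SCC154 and FaDu (± SE) against the distance of each gene's start from that of YAP1 in Mb, in post-hypoxic (top) and non-hypoxic libraries (bottom); diamonds are the 8 detected genes described, circles the 60 other tested genes, and open symbols genes with 3 counts or fewer in a group, whose fitted value is no bound. The diamonds and the genes among them are all above 0, and most genes more than 5 Mb towards the telomere are below 0.

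Of the neighbours named by rule, ARHGAP42, the nearest tested gene on the centromere side, was higher in non-hypoxic SCC154 (46.5 ± 11.6 CPM, SD, n = 5) than in non-hypoxic FaDu (4.09 ± 2.79 CPM, SD, n = 4). MMP1, the interstitial collagenase, averaged 194 ± 47.7 CPM in post-hypoxic SCC154 (SD, n = 4) and 17.0 ± 5.22 CPM in post-hypoxic FaDu (SD, n = 5); in non-hypoxic libraries it averaged 251 ± 101 and 19.3 ± 4.15 CPM. Lower genes occurred on the centromere side as well. ENDOD1, a predicted nuclease gene, averaged 1.00 ± 0.355 CPM in post-hypoxic SCC154 against 25.2 ± 4.07 CPM in post-hypoxic FaDu, and the stress-induced gene SESN3 2.08 ± 0.735 against 21.7 ± 6.66 CPM. ENDOD1 and SESN3 passed the filter through FaDu and not in SCC154 libraries alone. Their direction follows in part from the filter, and no p-value is given for them. The edgeR adjusted p was 3.33e-10 for ARHGAP42, and 1.49e-10 and 1.62e-10 for MMP1 in post-hypoxic and non-hypoxic libraries.

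Within SCC154, CFAP300 was the 1 detected gene of the 8 whose libraries did not overlap between the fractions. It had 51.2, 48.9, 58.6 and 41.3 CPM in post-hypoxic replicates 2 to 5, against 34.1, 29.96, 23.6, 26.0 and 21.98 CPM in non-hypoxic replicates 1 to 5. The lowest post-hypoxic library lay above the highest non-hypoxic one, and the log2 fold change (post-hypoxic minus non-hypoxic) was 0.89 (SE 0.17), 1.84-fold. CFAP300 was chosen for this difference, so it is given without a test. Over all tested genes the post-hypoxic SCC154 libraries lay wholly above the non-hypoxic ones for 2.56% and wholly below for 2.99%, which is 5.55% in either direction.

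The 7 other described genes with counts did not show this separation. The log2 fold changes in SCC154 were 0.14 (SE 0.15) for CEP126, -0.093 (SE 0.12) for YAP1, -0.013 (SE 0.12) for BIRC3 and 0.12 (SE 0.080) for BIRC2. TMEM123 had -0.016 (SE 0.093), DCUN1D5 -0.092 (SE 0.21) and DYNC2H1 0.19 (SE 0.12). Each of these 7 overlapped between the fractions. Leaving out 1 library turned the sign of CEP126 (to -0.013 without post-hypoxic replicate 3), YAP1 (to 0.039 without post-hypoxic replicate 4), TMEM123 (to 0.065 without post-hypoxic replicate 4) and BIRC3 (to 0.061 without non-hypoxic replicate 1), so no direction is given for these 4. For each CEP126 count there were 0.320, 0.207, 0.405 and 0.226 CFAP300 counts in post-hypoxic SCC154 replicates 2 to 5, against 0.180, 0.178, 0.141, 0.179 and 0.146 in non-hypoxic replicates 1 to 5. CFAP300 was not the only gene of the stretch with a larger value in this comparison. The 6 other tested genes lying between the described ones had a median log2 fold change of 0.72 in SCC154. MMP12 had 1.42, MMP13 1.01, WTAPP1 1.00, TMEM123-DT 0.45, MMP10 -0.27 and MMP1 -0.37, and 1 of the 6, MMP12, was called by edgeR.

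The post-hypoxic SCC154 libraries also varied among themselves. CEP126, YAP1, BIRC3, TMEM123 and DYNC2H1 were all highest in replicate 3, at 237, 775, 402, 784 and 1037 CPM. CEP126, YAP1, TMEM123, DCUN1D5 and DYNC2H1 were all lowest in replicate 4, at 145, 461, 608, 142 and 714 CPM. CFAP300 and BIRC2 were highest in that same replicate 4, at 58.6 and 548 CPM. Leaving out single libraries kept the CFAP300 log2 fold change between 0.81 (without post-hypoxic replicate 4) and 0.99 (without non-hypoxic replicate 1).

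**Figure D4:**
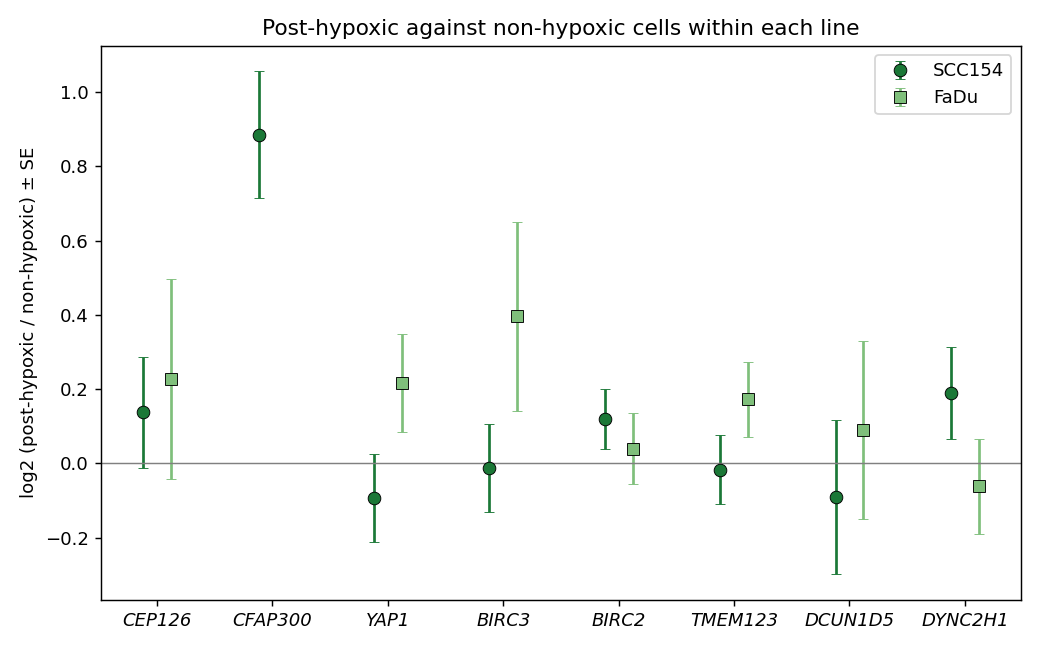
log2 fold change of post-hypoxic over non-hypoxic cells (± SE) for each detected gene, circles for SCC154 and squares for FaDu; CFAP300 has no FaDu value because both FaDu fractions held 2 counts or fewer. CFAP300 in SCC154 stands at 0.89, and all other values lie between -0.093 and 0.40.

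In FaDu none of the described genes passed the test. CFAP300 passed the filter only through SCC154, so 7 of the genes could be tested. By edgeR's quasi-likelihood test 0 of the 7 were called, as were 0% of all 12291 genes; 298 of these had an unadjusted p under 0.05, and none of the 7 did. DESeq2 called 3 genes, none of them among the 7. With FaDu libraries paired by replicate number (a replicate block), edgeR called 7 genes in FaDu, again none of those described; the unadjusted p of YAP1 was then 0.0256 and its adjusted p 0.780 (log2 fold change 0.25, SE 0.10). Libraries of the 2 fractions overlapped for each of the 7; they did not for 1.07% of all genes, 0.561% higher and 0.504% lower. YAP1 averaged 105 ± 6.19 CPM in post-hypoxic (SD, n = 5) and 90.8 ± 16.4 CPM in non-hypoxic FaDu libraries (SD, n = 4), with a log2 fold change of 0.22 (SE 0.13, adjusted p = 1 by edgeR). BIRC3 averaged 7.30 ± 1.86 and 5.47 ± 1.59 CPM, 0.40 (SE 0.26, adjusted p = 1 by edgeR), and TMEM123 143 ± 11.3 and 126 ± 14.3 CPM, 0.17 (SE 0.10, adjusted p = 1). The log2 fold changes of BIRC2, CEP126, DCUN1D5 and DYNC2H1 were 0.04 (SE 0.095), 0.23 (SE 0.27), 0.09 (SE 0.24) and -0.062 (SE 0.13). CFAP300 had 1 count in post-hypoxic and 2 counts in non-hypoxic FaDu libraries, too few at this depth to detect a difference. Whether its change differs between the lines was not tested.

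Some of the spread in FaDu followed the replicate number in both fractions. DCUN1D5 had 51.3 and 78.0 CPM in post-hypoxic replicates 3 and 4, against 30.5, 40.0 and 33.9 CPM in replicates 1, 2 and 5. Non-hypoxic FaDu showed 52.4 and 65.8 CPM in replicates 3 and 4, and 29.5 and 30.9 CPM in replicates 1 and 2. DYNC2H1 ran the other way, with 215 and 183 CPM in post-hypoxic replicates 3 and 4 against 247, 231 and 216 CPM in replicates 1, 2 and 5, and with 199 and 181 CPM in non-hypoxic replicates 3 and 4 against 279 and 251 CPM in replicates 1 and 2. No batch is given in the labels.

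Partners of the described proteins were followed through 4 lists, counting genes called by edgeR at an adjusted p under 0.05 beside the 34.8% of all genes called higher and 34.9% called lower in post-hypoxic libraries (34.5% and 34.5% in non-hypoxic ones). Of 25 genes that act with BIRC2 and BIRC3 (TRAFs, tumour necrosis factor receptors, caspases and other inhibitors of apoptosis), 23 were tested. Of these, 7 were called higher and 8 lower in SCC154, both in post-hypoxic and in non-hypoxic libraries, with median log2 differences over the 23 of 0.039 and 0.028. CD40, a tumour necrosis factor receptor that recruits TRAFs, averaged 55.9 ± 13.7 CPM in post-hypoxic SCC154 (SD, n = 4) and 14.6 ± 2.26 CPM in post-hypoxic FaDu (SD, n = 5), and RELB, a subunit of the NF-kB branch that NIK controls, 20.6 ± 7.34 CPM in non-hypoxic SCC154 (SD, n = 5) and 3.20 ± 1.22 CPM in non-hypoxic FaDu (SD, n = 4). FADD, the adaptor of death receptors, went the other way, at 83.9 ± 9.41 CPM in post-hypoxic SCC154 and 295 ± 22.1 CPM in post-hypoxic FaDu; it lies at 11q13. TNFRSF12A, the receptor for TWEAK, averaged 87.7 ± 14.8 CPM in post-hypoxic SCC154 and 270 ± 43.4 CPM in post-hypoxic FaDu. The edgeR adjusted p was 1.47e-09 for CD40, 6.45e-07 for RELB, 7.88e-13 for FADD and 1.40e-09 for TNFRSF12A.

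Of 24 genes of the Hippo pathway and its TEAD targets, 23 were tested. In SCC154, calls numbered 14 higher and 5 lower in post-hypoxic libraries (15 and 5 in non-hypoxic ones), with medians over the 23 of 1.27 and 1.21. WWTR1 and VGLL4, named after their values were seen, were among those called lower in both fractions. In post-hypoxic libraries WWTR1 averaged 23.8 ± 3.50 CPM in SCC154 (SD, n = 4) and 80.3 ± 6.51 CPM in FaDu (SD, n = 5). VGLL4 averaged 5.74 ± 3.78 and 30.5 ± 5.41 CPM in the same libraries. Of the 23, 20 passed the filter in FaDu libraries alone; the others were ANKRD1, AJUBA and CCN2. The TEAD target ANKRD1 and the LIM protein AJUBA, which restrains the LATS kinases, had no count in FaDu. With a floor of 3 counts over the group, AJUBA was at least 540-fold higher in post-hypoxic and at least 314-fold higher in non-hypoxic SCC154 libraries, and ANKRD1 at least 277-fold and at least 316-fold. CCN2, a secreted TEAD target, averaged 62.2 ± 11.7 CPM in post-hypoxic SCC154 (SD, n = 4) and 2.98 ± 1.90 CPM in post-hypoxic FaDu (SD, n = 5). ANKRD1, AJUBA and CCN2 passed the filter through SCC154, so their direction follows in part from the filter. No p-value is given for them, and the counts of higher genes above include all 3.

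Of 29 genes of ciliary dyneins, intraflagellar transport and their RFX and FOXJ1 regulators, 20 were tested. Calls in SCC154 numbered 11 higher and 4 lower in post-hypoxic libraries, and 11 and 5 in non-hypoxic ones, with medians over the 20 of 0.56 and 0.50. Of the 20, 15 passed the filter in each line alone. DNAH5, DNAAF11 and WDR35, called higher in both fractions, passed through SCC154 and not in FaDu libraries alone. DNAAF3, called lower in both, and DYNLT2B, called lower in non-hypoxic libraries, passed through FaDu and not in SCC154 libraries alone. The counts include these genes, whose direction follows in part from the filter. RFX3, a regulator of cilium genes through the X-box, averaged 52.4 ± 15.8 CPM in post-hypoxic SCC154 and 7.53 ± 3.79 CPM in post-hypoxic FaDu, and RFX2 22.6 ± 5.56 and 8.74 ± 1.47 CPM. DYNLL1, a dynein light chain, was lower, at 70.4 ± 10.8 CPM in post-hypoxic SCC154 and 265 ± 42.5 CPM in post-hypoxic FaDu. The edgeR adjusted p was 3.13e-08 for RFX3, 2.67e-06 for RFX2 and 3.80e-08 for DYNLL1. As markers of multiciliated cells, FOXJ1 averaged 1.86 CPM in post-hypoxic and 0.779 CPM in non-hypoxic SCC154, against 0.109 and 0.135 CPM in the same fractions of FaDu. TPPP3 and CCDC39 had no count in SCC154. DNAH5, an outer arm dynein chain, averaged 16.5 CPM in post-hypoxic and 18.4 CPM in non-hypoxic SCC154; the 6 such markers summed to 15.4 to 26.3 and 10.4 to 28.6 CPM in these libraries. Their part in the CFAP300 levels was not tested.

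All 15 genes of cullin neddylation, in which DCUN1D5 acts, were tested. Of these, 2 were called higher and 6 lower in SCC154 in the post-hypoxic libraries, and 3 and 6 in the non-hypoxic ones, where 69.7% and 68.9% of all genes were called in either direction, with medians of -0.20 and -0.059. The DCUN1D5 relative DCUN1D2 averaged 28.8 ± 6.43 CPM in post-hypoxic SCC154 and 11.3 ± 1.55 CPM in post-hypoxic FaDu. The scaffold CUL1 was lower, at 51.5 ± 5.72 and 99.7 ± 7.44 CPM, as was the RING protein RBX1, at 104 ± 25.6 and 204 ± 13.9 CPM. The edgeR adjusted p was 6.07e-07 for DCUN1D2, 4.32e-07 for CUL1 and 2.61e-06 for RBX1.

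Between the SCC154 fractions, edgeR's quasi-likelihood test called 2 of the 139 tested partner and neighbour genes, both higher, where 0.757% of all genes were called (0.334% higher, 0.423% lower). Both are neighbours on the chromosome and none belongs to the 4 partner lists. MSANTD4, a gene of unclear function 3.90 Mb towards the telomere, averaged 50.1 ± 2.38 CPM in post-hypoxic (SD, n = 4) and 35.2 ± 3.80 CPM in non-hypoxic SCC154 libraries (SD, n = 5), with a log2 fold change of 0.51 (SE 0.11, adjusted p = 0.0354). MMP12, the macrophage elastase, is named because the count is small, after its values were seen. It averaged 19.6 CPM in post-hypoxic and 6.99 CPM in non-hypoxic SCC154 libraries (log2 fold change 1.42, adjusted p = 0.0212 by edgeR). The call of MSANTD4 was lost on leaving out post-hypoxic SCC154 replicate 2 (edgeR adjusted p = 0.116) or 4 (0.124), non-hypoxic SCC154 replicate 1 (0.0686), 2 (0.0712), 3 (0.0705) or 5 (0.0866), or post-hypoxic FaDu replicate 3 (0.0505), and that of MMP12 on leaving out non-hypoxic SCC154 replicate 2 (0.0538) or 3 (0.0589). In FaDu, 16 of the 139 did not pass the filter in that line's libraries alone, and 3 of them (ANKRD1, AJUBA and TMEM123-DT) had no count there. Of the other 123, edgeR called 0, with 6 at an unadjusted p under 0.05, and DESeq2 called 0.

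By profile over the 18 libraries, the genes most like BIRC2 were GPRC5A, NR2F2 and LY6K, on chromosomes 12, 15 and 8. Likeness was the root mean square difference between log2(CPM + 0.5) profiles, each centred on its own mean, among 9660 tested genes averaging 10 CPM or more, and came to 0.12, 0.13 and 0.14. ZFR2, ME2 and CCBE1 were nearest to BIRC3 (0.33, 0.34 and 0.34), and PAPPA, LDHC and PLAAT2 to CFAP300 (0.40, 0.42 and 0.45). LDHC and PLAAT2 lie on chromosome 11, and none of the 9 is among the 60 tested neighbours. All 9 had higher means in both SCC154 groups than in either FaDu group, which follows from their choice by likeness to these profiles. ZFR2, PAPPA, LDHC and PLAAT2 had no count in FaDu, and ME2 averaged 0.088 CPM in post-hypoxic and 0 CPM in non-hypoxic FaDu libraries. The distances of these genes, and so their ranks, depend on the 0.5 CPM added before the log.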

How the data were processed

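The authors deposited 1 table of raw read counts per gene symbol for 18 libraries made with a 3′ mRNA tag kit (QuantSeq V2), per the labels' protocols. Tools named in the submitters' processing notes are HISAT2 2.2.1 and featureCounts 1.5.1, UMI-tools 1.1.5, FastQC 0.11.9 and Trimmomatic 0.39, with DESeq2, and the build is hg38. The sources used here do not give their order, the annotation, the strand setting or the use of molecular identifiers; intervals and floors therefore cover counting error only. Columns were matched to samples by library name, and groups and replicate numbers come from titles.

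Differences were tested on the counts with edgeR 4.0.16 (R 4.3.3): filterByExpr (12291 genes kept of 22591 with a count), TMM factors, 1 quasi-likelihood model of 4 group means and a Benjamini-Hochberg adjusted p under 0.05 over all tested genes. There were 14 residual degrees of freedom and a common biological coefficient of variation of 0.148. SE is the log2 fold change divided by the square root of F. CPM use TMM-scaled library sizes. The code was tested on simulated data. The described genes, the partner lists and the tests were chosen with earlier results of these data known.

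Genes named from a list were the 3 called ones with the largest change and a mean of at least 10 CPM; neighbours were symbols with a RefSeq start (GRCh38.p14, the files' build) within 10 Mb of YAP1. All detected members are named. Within groups, 32 pairs of libraries differed by more than sampling noise (chi-square per degree of freedom 1.84 to 11.7). Nothing in the labels says that replicates were separate cultures, so the spread behind each p-value is that between these libraries and may be technical. Deviations of same-numbered FaDu libraries correlated in each of 4 pairs (0.18 to 0.45), and a block by number was therefore fitted for FaDu. Different-numbered FaDu pairs ran from -0.43 to 0.24. The highest, post-hypoxic 3 with non-hypoxic 4, exceeded same-numbered pairs 2 (0.18) and 3 (0.21), so this pairing was uncertain. In SCC154 1 of 4 same-numbered pairs fell below 0.1 (0.029), and a pairing by number was not assumed there. The other same-numbered SCC154 pairs had 0.29, 0.40 and 0.14, against -0.40 to 0.20 for different-numbered ones, so a pairing there was not excluded. Alternatives were RLE and upper-quartile factors, no filter, DESeq2 1.42.0, each line alone, replicate blocks, and leaving out libraries.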

Additional observations from a re-analysis of the deposited data

Results flagged for a closer look

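In 32 combinations of a detected gene and a group, 2 libraries stood apart from the rest by Dixon's criterion, which chance meets in about 1 of 20 groups. BIRC2 stood at 449 CPM in non-hypoxic SCC154 replicate 3, below the 486 to 501 CPM of the other 4 libraries. CFAP300 in post-hypoxic FaDu replicate 4 had 0.41 CPM, which is 1 count where the other 4 libraries had 0.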

How the results depend on the processing

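With 26 alternatives, 0 of the 7 described genes that could be tested in FaDu passed, with or without the replicate block, and 0 of the 123 partner and neighbour genes that passed the filter there. Calls between the lines among the 294 listed partner and neighbour genes ran from 106 to 119 in post-hypoxic libraries (112 of 139 tested in the report). In non-hypoxic libraries they ran from 108 to 121 (114 of 139). The genes tested changed with the setting: with no filter, 10106 and 9798 of all 22591 genes were called in post-hypoxic and non-hypoxic libraries. A block within each line could not be fitted to this comparison. Between the SCC154 fractions the count of 2 was unstable: it was 4 with no filter on low counts and 4 with DESeq2, 0 with each line fitted alone and 0 with both post-hypoxic replicate 3 and non-hypoxic replicate 1 left out, and 0 to 3 with single libraries left out. A replicate block gave 21 calls when set within each line and 5 when shared by both lines, and SCC154 numbers were not taken to pair libraries. The count over all genes moved as well, from 93 of 12291 in the report to 1052 with the block within each line and 243 with the shared block. It was 291 of 22591 with no filter, 207 with DESeq2 and 22 of 11246 with each line alone. With both libraries left out it was 72 of 12434, and with single libraries left out 20 to 190. Nothing is read from the change in the listed genes. In FaDu the log2 fold change of DCUN1D5 turned to -0.060, -0.052 and -0.18 without non-hypoxic replicate 1, non-hypoxic replicate 2 or post-hypoxic replicate 4 (range over single libraries left out -0.18 to 0.33), and that of DYNC2H1 to 0.051 without non-hypoxic replicate 1 (range -0.16 to 0.051); the cause was not tested. CFAP300 in SCC154 kept 0.81 to 0.99 in all 26. Its fitted difference between the lines moved most (6.11 to 6.96 in non-hypoxic, 8.17 to 9.74 in post-hypoxic libraries), since FaDu held 3 counts in all. The floor of 1.23 to 1.79 CPM in a library limits what can be said of TRPC6, PGR and CFAP300 in FaDu.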
